A study of Mus musculus with 8 samples.

Results

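The 10 genes described here are antiviral effectors that cells switch on when type I interferon reaches them: *Isg15*, *Usp18*, *Ifit1*, *Ifit2*, *Ifit3*, *Oas1a*, *Oas2*, *Oasl2*, *Rsad2* and *Rtp4*. They were found on the arrays by the gene name printed beside each spot, and 12 of the 56605 probes that are not controls carried one of these names (10 of 37074 gene names). Expression was measured in interscapular tissue labelled as brown adipose tissue (BAT) from 4 Co mice and 4 Pg mice, with 1 Agilent one-color array per mouse. All were male C57BL/6J mice, 12 weeks old, and no engineered allele is named for either group. Pg mice received sonicated *Porphyromonas gingivalis*, a bacterium of periodontitis, through a vein in 100 μL of saline, and Co mice received the saline alone. The labels print the dose as 108 CFU, with the exponent set in plain digits (10 to the power of 8), and the tissue was taken 18 h after the injection. The comparison asks whether the bacterial material left an interferon response in this tissue at that time.

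Type I interferons are secreted proteins that bind a receptor made of IFNAR1 and IFNAR2. The kinases JAK1 and TYK2 on that receptor activate a transcription factor complex called ISGF3, which binds a DNA element called ISRE in the promoters of its targets. Lipopolysaccharide of gram-negative bacteria can start the same response, because its receptor TLR4 can signal through the adaptor TRIF to IRF3 and the gene of interferon-β. The effectors then act on viral RNA, on proteins and on nucleotides inside the cell.

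The promoters are shown because these genes are known as one regulatory class, and the letters let the shared element be seen. RefSeq windows of the GRCm38.p6 build, from 250 bases before to 50 after a start site, were at hand for 7 of the 10 genes (*Isg15*, *Ifit1*, *Ifit2*, *Ifit3*, *Oas1a*, *Oasl2* and *Rsad2*). The ISRE core was searched as GAAA, any 2 bases and GAAA again, or the reverse complement (TTTC, any 2 bases and TTTC), with overlapping matches allowed. It was found in 5 of the 7 genes and in 3.99% of all 27025 genes with such windows. Each stretch below is written 5′ to 3′ on the strand of its gene, with the core in capitals and 8 bases on either side.
Isg15, chr4:156200867-156200904, minus strand: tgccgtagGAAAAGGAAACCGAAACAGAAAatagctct
Oas1a, chr5:120907522-120907553, minus strand: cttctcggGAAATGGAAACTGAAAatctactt
Rsad2, chr12:26456555-26456580, minus strand: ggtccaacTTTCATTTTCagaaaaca
Ifit3, chr19:34583365-34583424, plus strand: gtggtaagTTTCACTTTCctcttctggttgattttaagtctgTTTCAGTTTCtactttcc
Ifit1, chr19:34640777-34640821, plus strand: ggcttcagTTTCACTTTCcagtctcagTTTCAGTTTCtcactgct
*Isg15* held 3 overlapping matches, *Oas1a* 2 overlapping ones, *Ifit1* and *Ifit3* 2 separate ones each, and *Rsad2* 1. The matches of all 5 genes lay before the start site, and in *Oas1a* only the flanking bases reached past it. No match was present in these windows of *Ifit2* and *Oasl2*, which says only that these letters were not in them.

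A second element, GAS, is known from the response to interferon-γ. It was searched as TTCNNNGAA, which reads the same on both strands, and 2 of the 7 genes held it, against 9.55% of all genes with windows.
Oas1a, chr5:120907607-120907631, minus strand: gctcagacTTCAAAGAAcctggtca
Ifit2, chr19:34550445-34550469, plus strand: atgggagcTTCCTGGAAgaatggat
*Oas1a* was the only 1 of the 7 with both cores, and *Oasl2* had neither in its window. A match is a run of letters and not a measured binding site.

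Some facts of the arrays bear on all that follows. All 8 arrays were on 1 slide and in 1 scan, with the Co arrays in its row 1 and the Pg arrays in its row 2, so the effect of the row cannot be told apart from that of the injection. Co arrays had 34761 to 35831 probes well above background and Pg arrays had fewer, 31135 to 34066 (two-sided exact permutation test, p = 0.0286, which is the lowest value 70 splits allow). The labelled tissue was only partly borne out by its markers. *Ucp1*, which defines thermogenic brown adipocytes, was well above background on no array, as were *Elovl3* and *Bmp8b*, while the other 9 of 12 brown adipocyte genes were above it on all 8, with *Cidea*, a lipid droplet protein, at 13.44 in Co mice on the log2 scale. *Adipoq*, the adipocyte hormone adiponectin, was at 10.29 in both groups. All 12 skeletal muscle genes were above background on all 8 arrays, with the actin gene *Acta1* at 18.54 in Co mice. BAT is used here only as the label of the tissue.

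Values below are log2 normalized intensities, that is, the processed Cy3 signal after quantile normalization between arrays, and a difference is the Pg mean minus the Co mean. Co1 to Co4 and Pg1 to Pg4 name the arrays by group and replicate. Of the 12 probes, 11 passed the filter (well above background on 4 or more arrays) and were tested with limma, and 1 of 2 probes of *Oas2* was above it on none. A gene was called a DEG at a q under 0.1, adjusted over all 33820 probes tested, with a fold change above 1.5. None of the 11 probes met this, against 1.61% of all probes tested. At an unadjusted p under 0.05 there was 1 probe, that of *Oas1a*, against 22.8% of all probes tested in either direction and 6.86% in the direction of higher in Pg mice. The count of calls among the interferon effectors therefore did not exceed the background of the array.

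The differences leaned to one side all the same. The Pg mean was above the Co mean for 9 of the 10 genes, where 1 probe stood for each gene, while it was above for 42.3% of all probes tested. The median difference of the 10 genes was 0.36, against -0.04 over all probes. Without Pg2 it was 0.12, with 7 of the 10 genes higher. These are descriptions of the list, since its genes move together from array to array. *Oas1a* had the largest difference, 0.87, and *Rsad2* the smallest in size, -0.02.

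**Figure D1:**
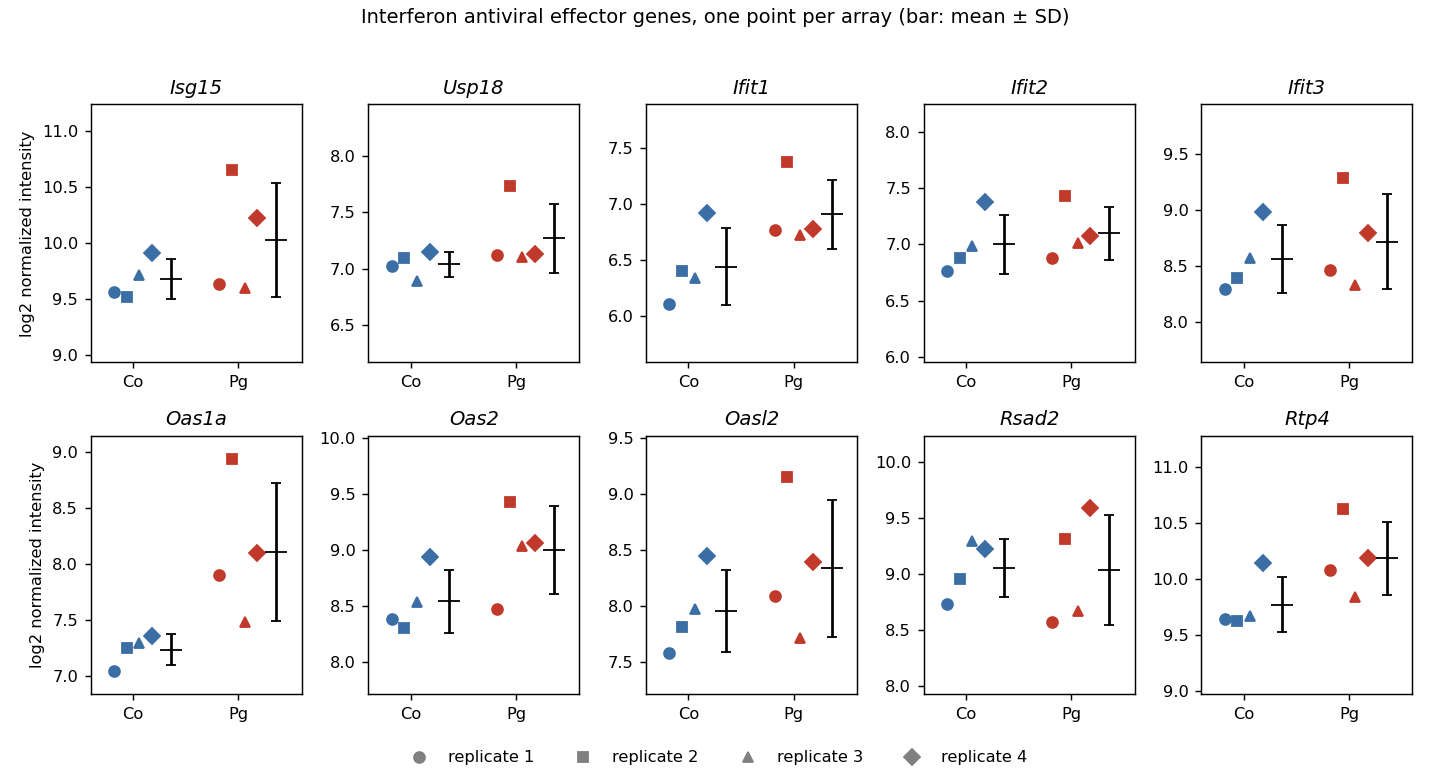
Log2 normalized intensity (y axis) of the 10 interferon effector genes on each of the 4 Co and 4 Pg arrays, 1 point per array, with the group mean and SD. The Pg2 array is highest of the 8 for 9 genes, *Oas1a* is the only gene whose groups do not overlap, and *Rsad2* has nearly equal means.

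The oligoadenylate synthetases sense double-stranded RNA and make short oligoadenylates that switch on the nuclease RNase L. The probe of *Oas1a* (NM_145211, mm9 chr5:121346735-121346794, minus strand) read 7.04, 7.25, 7.29 and 7.36 on Co1 to Co4 and 7.90, 8.94, 7.48 and 8.09 on Pg1 to Pg4. Every Pg array was thus above every Co array, which held for none of the other tested probes of these genes and for 4.83% of all probes tested in this direction. The mean went from 7.23 ± 0.14 to 8.10 ± 0.61 (SD, n = 4), a difference of 0.87 with an SE of 0.28 and a fold change of 1.83 (95% confidence interval 1.17 to 2.85, limma q = 0.127). The interval lay above 1, but the q value missed the threshold. Over the 15 other settings the q of *Oas1a* lay between 0.0795 and 0.223. It became a DEG with another background correction (difference 0.73, q = 0.0937 by limma) and without Pg3 (1.08, q = 0.0795), and the difference was 0.59 without Pg2 (q = 0.131), the array where it was highest. The accessions printed for this probe also include transcripts of *Oas1g*, a close copy of the gene, so the signal cannot be assigned to one of the pair.

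*Oas2* makes longer oligoadenylates. Its tested probe (NM_145227, mm9 chr5:121180343-121180402, minus strand) read 8.39, 8.30, 8.54 and 8.93 on Co1 to Co4 and 8.47, 9.43, 9.03 and 9.06 on Pg1 to Pg4. Pg2, Pg3 and Pg4 were above all Co arrays, and Pg1 lay among them. The fold change was 1.37 (0.971 to 1.94, q = 0.256 by limma), so an equal level in both groups lay within the interval. The other probe of *Oas2* (mm9 chr5:121184997-121185056), not well above background on any array, gave no measured level.

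*Oasl2* encodes a family member with ubiquitin-like domains. Its probe (NM_011854, mm9 chr5:115362168-115362227, plus strand) read 7.58, 7.81, 7.97 and 8.45 on Co1 to Co4 and 8.09, 9.15, 7.72 and 8.39 on Pg1 to Pg4. Only Pg2 exceeded the highest Co array, and Pg3 was below 3 of the Co arrays. Pg mice were at 1.30 times the Co level (0.788 to 2.15, q = 0.506 by limma), and the difference of 0.38 became 0.11 without Pg2.

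The IFIT proteins bind foreign RNA ends and block translation, and the probes of the 3 genes lie within 73.6 kb of each other (mm9 chr19:34650244-34723886). The probe of *Ifit1* (NM_008331, mm9 chr19:34723827-34723886, plus strand) read 6.11, 6.40, 6.34 and 6.92 on Co1 to Co4 and 6.77, 7.37, 6.72 and 6.78 on Pg1 to Pg4. Every Pg array exceeded 3 of the Co arrays, but only Pg2 exceeded Co4. This gave a fold change of 1.38 (0.992 to 1.93, q = 0.229 by limma), the second largest of the 10.

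*Ifit2* and *Ifit3*, its neighbours, differed less. The probe of *Ifit2* (NM_008332, mm9 chr19:34650244-34650303, plus strand) read 6.77, 6.88, 6.98 and 7.38 on Co1 to Co4 and 6.88, 7.43, 7.01 and 7.07 on Pg1 to Pg4. The probe of *Ifit3* (NM_010501, mm9 chr19:34663105-34663164, plus strand) read 8.30, 8.39, 8.57 and 8.99 on Co1 to Co4 and 8.46, 9.29, 8.33 and 8.80 on Pg1 to Pg4. In both genes Pg2 was the only Pg array above Co4, and the other Pg arrays lay within the Co range. The fold changes were 1.07 (0.827 to 1.39, q = 0.748 by limma) and 1.12 (0.768 to 1.62, q = 0.722 by limma). Without Pg2 the differences of both turned to the other side of 0, at -0.011 for *Ifit2* and -0.031 for *Ifit3*.

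*Isg15* encodes a ubiquitin-like protein that is attached to other proteins during the response. Its probe (NM_015783, mm9 chr4:155573649-155573708, minus strand) read 9.57, 9.52, 9.72 and 9.91 on Co1 to Co4 and 9.64, 10.65, 9.60 and 10.23 on Pg1 to Pg4. Pg2 and Pg4 were above all Co arrays, while Pg1 and Pg3 lay inside the Co range. The fold change was 1.27 (0.868 to 1.86, q = 0.425 by limma), and the difference was 0.35 with all arrays and 0.14 without Pg2.

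*Usp18* encodes the protease that removes ISG15 and that also dampens signaling at the receptor. Its probe (NM_011909, mm9 chr6:121220874-121220933, plus strand) read 7.02, 7.09, 6.89 and 7.14 on Co1 to Co4 and 7.12, 7.73, 7.11 and 7.13 on Pg1 to Pg4. The other 7 arrays lay between 6.89 and 7.14, and Pg2 stood above them. The difference was 0.23 (95% confidence interval -0.11 to 0.58, q = 0.389 by limma) and became 0.08 without Pg2.

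*Rsad2* encodes viperin, a radical SAM enzyme that makes a nucleotide which stops viral RNA chains. Its brighter probe (NM_021384, mm9 chr12:27127859-27127918, minus strand) read 8.73, 8.96, 9.29 and 9.23 on Co1 to Co4 and 8.57, 9.31, 8.67 and 9.59 on Pg1 to Pg4. The Pg arrays split, with Pg1 and Pg3 below all Co arrays and Pg2 and Pg4 above all of them. The fold change was 0.989 (0.666 to 1.47, q = 0.978 by limma), and the sign of this small difference turned in 6 of 15 other settings. The second probe of the gene was dimmer, with 5.47 to 6.04 on Co arrays and 5.10 to 6.28 on Pg arrays, and its difference was 0.08 (q = 0.877 by limma).

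*Rtp4* encodes an interferon-induced protein first known as a chaperone of membrane receptors. Its probe (NM_023386, mm9 chr16:23613668-23613727, plus strand) read 9.65, 9.63, 9.67 and 10.14 on Co1 to Co4 and 10.08, 10.62, 9.84 and 10.19 on Pg1 to Pg4. All Pg arrays were above Co1, Co2 and Co3, and Co4 lay above Pg1 and Pg3. This gave a fold change of 1.33 (0.989 to 1.79, q = 0.235 by limma), and the difference of 0.41 became 0.26 without Pg2.

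**Figure D2:**
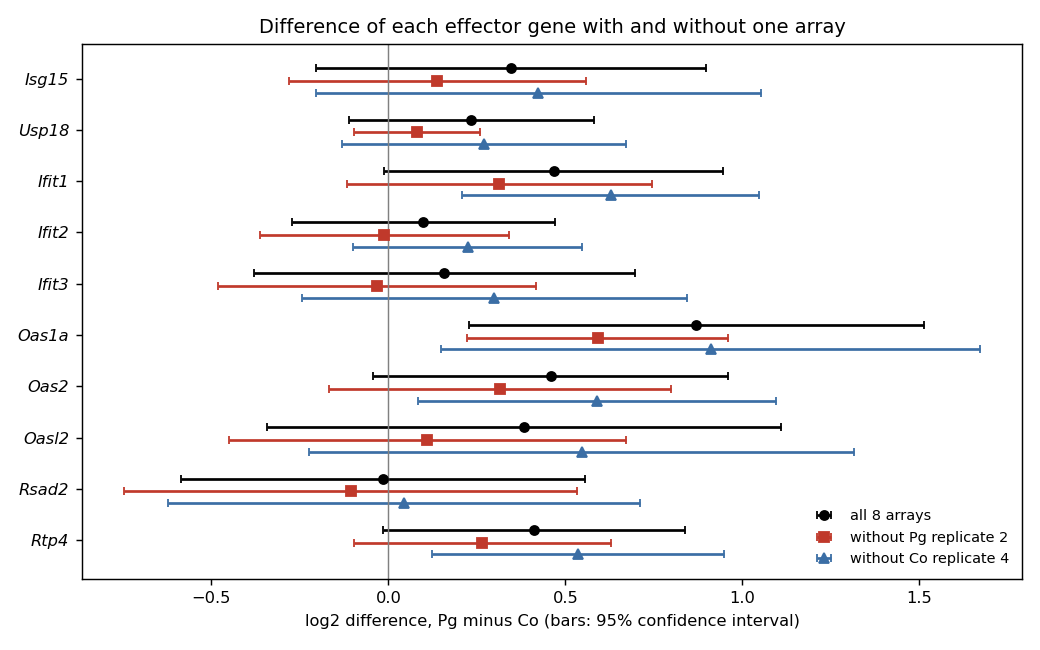
Difference between Pg and Co mice (x axis, log2 scale, Pg mean minus Co mean) for each of the 10 genes with its 95% confidence interval, from all 8 arrays (circles), without Pg2 (squares) and without Co4 (triangles). With all 8 arrays the interval of *Oas1a* is the only one that leaves out 0, the values without Pg2 lie lower than those of all 8 arrays, and the values without Co4 lie higher.

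Variation within groups was close in size to the difference between them. The median SD of the 10 genes was 0.26 over the Co arrays and 0.41 over the Pg arrays, against 0.14 in both groups over all probes tested, although an SD on this scale also depends on how bright a probe is. Pg2 was the highest of the 8 arrays for 9 of the 10 genes, which held for 12.2% of all probes tested, and Pg4 was the highest for *Rsad2*. Pg2 was above every Co array for all 10 genes, Pg4 for 5, Pg3 for 2 and Pg1 for 1.

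On Pg2 the fold change over the Co mean was 3.26 for *Oas1a*, 2.29 for *Oasl2*, 1.96 for *Isg15*, 1.90 for *Ifit1* and 1.85 for *Oas2*, and it was lowest for *Rsad2*, at 1.20. On Pg4 it was 1.81 for *Oas1a*, 1.46 for *Isg15* and 1.45 for *Rsad2*. On Pg3 the lowest were *Rsad2* at 0.769, *Oasl2* at 0.848 and *Ifit3* at 0.852. *Oas1a*, *Ifit1*, *Rtp4* and *Usp18* were above the Co mean on all 4 Pg arrays, and the other 6 genes were below it on at least 1.

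The Co mice were not even either. Co4 was the highest Co array for 9 genes, and Co1 was the lowest of all 8 arrays for 5. Without Co4 the differences of *Ifit1*, *Oas2* and *Rtp4* were 0.63 (q = 0.135 by limma), 0.59 (q = 0.195) and 0.54 (q = 0.166), and none became a DEG. Summed over the 10 genes, the normalized intensity on a linear scale was 3264, 3392, 3770 and 4630 on Co1 to Co4 and 3844, 6743, 3709 and 5101 on Pg1 to Pg4. Pg1 and Pg3 lay within the Co range, Pg4 was above Co4, and Pg2 was at 1.70 times the mean of the other 7 arrays. The sum weights bright genes such as *Rtp4* and *Isg15* most.

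The genes rose and fell together over the arrays. Over the 45 pairs of the 10 genes, Pearson's r across the 8 arrays ran from 0.24 to 0.97 with a median of 0.83, and the median of Spearman's rho was 0.81. With each group centred on its own mean the median r was 0.80, and without Pg2 it was 0.64. The points of each correlation share the same arrays, normalization and mice. Among 22429 other genes, the 5 most like the mean profile of the 10 were *Ap3b1*, *Psmb9*, *Gbp3*, *Phf11d* and *Tyms*, with r from 0.971 to 0.983 over 8 arrays and from 0.937 to 0.979 without Pg2. None of the 5 was a DEG, with differences from 0.13 for *Ap3b1* to 0.51 for *Gbp3*.

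Markers of macrophages moved with these sums, while those of several other cell types did not. In bulk tissue, fewer cells of a type and less RNA per cell cannot be told apart. The summed intensity of the 11 tested macrophage markers of 12 ran from 36213 to 42564 on Co arrays and was 39853, 55952, 34412 and 49930 on Pg1 to Pg4, so Pg2 and Pg4 led here too. Over the 8 arrays its Pearson's r with the sum of the 10 effectors, both taken to log2, was 0.94 and Spearman's rho 0.90. The r of every other marker list was computed on log2 sums too. The bright probes of *Itgam* and *Lyz2* weigh most in the macrophage sum. *Itgam* was at 14.63 in Co and 14.58 in Pg mice. It was highest on Co2, at 14.76, and read 14.66 on Pg2 and 14.48 on Pg4. *Lyz2*, the lysozyme of macrophages, read 12.15 to 13.15 on Co arrays and 12.98, 14.22, 12.32 and 14.14 on Pg1 to Pg4. Of these markers 8 had a higher and 3 a lower Pg mean, and none was a DEG. *Adgre1*, the F4/80 antigen, was at 7.27 ± 0.55 in Co and 7.77 ± 0.77 in Pg mice (SD, n = 4, q = 0.516 by limma). The 3 lower ones were *Mertk* (-0.26, q = 0.199 by limma), *Cd163* (-0.13, q = 0.747) and *Itgam* (-0.05, q = 0.717). The part of macrophages in the level of the interferon effectors was not tested.

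**Figure D3:**
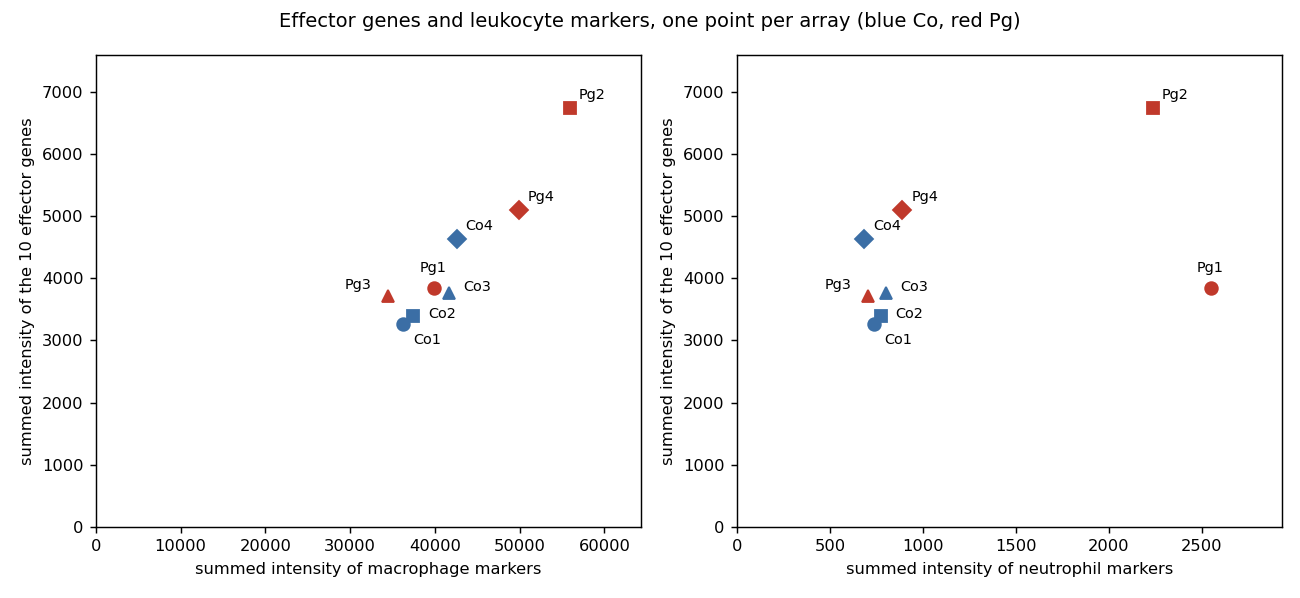
Summed normalized intensity of the 10 interferon effectors (y axis, linear scale) against that of the marker lists of other cell types (x axis, linear scale), 1 point per array. The Pg2 and Pg4 arrays are highest for the macrophage markers, and Pg1 and Pg2 for the neutrophil markers.

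Neutrophil markers followed another order. Their sum ran from 683 to 799 on Co arrays and was 2551, 2236, 706 and 888 on Pg1 to Pg4, with r of 0.48 and rho of 0.45 with the effectors. *S100a8*, a calcium-binding protein of neutrophils, read 8.59, 8.32, 5.18 and 6.76 on Pg1 to Pg4 against 4.56 to 5.33 on Co arrays (difference 2.16, q = 0.132 by limma). The sum was carried by *S100a8* and its partner *S100a9* (difference 2.04, q = 0.195 by limma). Of the other 3 tested markers, *Ly6g* and *Camp* differed little, by 0.09 and 0.013. *Mmp8* was well above background on 4 Co arrays and 1 Pg array, so its difference of 0.16 includes values that are no measured level. *Ngp* was above background on no array. Pg1 thus had the highest neutrophil sum and an effector sum within the Co range. The endothelial sum ran from 9080 to 11583 on Co and from 11183 to 12344 on Pg arrays (r 0.71, rho 0.93). Of its 5 markers, 3 had a higher and 2 a lower Pg mean. *Kdr* had the largest difference (0.57, q = 0.0573 by limma), which is below the fold threshold. *Cdh5* was at 0.13 (q = 0.539) and *Emcn* at 0.10 (q = 0.645), against -0.20 for *Pecam1* (q = 0.151) and -0.14 for *Tek* (q = 0.441). For brown adipocyte, white adipocyte and skeletal muscle markers r was 0.06, 0.02 and 0.10. For T, B and NK cell markers r was -0.06, with *Cd3g*, *Ncr1* and *Klrb1c* above background on no array. For the sum of the 3 plasmacytoid dendritic cell markers it was -0.10, but this sum is nearly all *Siglech*, at 15.88 in Co and 15.95 in Pg mice. The other 2 had differences of 0.42 for *Bst2* (q = 0.260 by limma), which is itself interferon-induced and had an r of 0.966 with the mean effector profile over the 8 arrays, and -0.35 for *Ccr9* (q = 0.365). Whether any of these cells contributed to the effector levels was not tested.

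The other genes of the pathway were read from 7 lists with 114 genes, of which 92 were tested. The Pg mean was above the Co mean for 68 and below it for 24, while it was above for 42.3% of all probes tested. There was 1 DEG, which was higher in Pg mice. Of all probes tested, 1.61% were DEGs in either direction and 0.313% were DEGs with a higher Pg mean. Interferon genes themselves were dim. Of 16 ligands, 14 were on the array, and 8 of them were well above background on no array, *Ifnb1* and *Ifng* included. Of the 5 tested ligands, 3 were well above background on all 8 arrays. None of these was a DEG, with differences of -0.12 for *Ifnl3*, 0.04 for *Ifna14* and 0.01 for *Ifnab*. *Ifna1* and *Ifna5* are named after their values were seen. *Ifna1* was well above background on all 4 Co arrays and on no Pg array, and *Ifna5* on 4 Co arrays and 1 Pg array. Both reached the 4 arrays of the filter through the Co arrays, so no test of them is given. The median of this list, -0.01, counts both and is the value of *Ifna5*, so it describes no measured ligand.

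The receptor and ISGF3 genes were all measured, and the receptor and kinase genes were near equal, from -0.13 for *Jak2* to 0.07 for *Ifngr1*. Of the 10 genes of the list, 5 had a higher and 5 a lower Pg mean, with a median difference of 0.00 and no DEG. *Stat2* and *Irf9*, which encode parts of ISGF3, had larger differences of 0.42 (q = 0.156 by limma) and 0.22 (q = 0.486). The ISG15 conjugation list had 2 genes higher and 3 lower, and none was a DEG. *Uba7*, the activating enzyme, had a difference of 0.35 (q = 0.207 by limma). The conjugating enzyme *Ube2l6* was at -0.30 (q = 0.536), *Trim25*, a ligase, at -0.14 (q = 0.207) and *Uba1* at -0.02 (q = 0.870). *Herc6* was at 0.58 (q = 0.605), but well above background on only 2 Co and 2 Pg arrays. These values establish no direction for the enzymes around ISG15.

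The sensors and inducers of interferon held the one DEG. *Dhx58* encodes LGP2, a relative of the RNA sensors RIG-I and MDA5. It read 4.97, 4.79, 5.24 and 5.21 on Co1 to Co4 and 5.53, 6.36, 5.66 and 5.72 on Pg1 to Pg4, without overlap between the groups. The difference was 0.76 (q = 0.0796 by limma). It was no longer a DEG in 7 of the 8 fits that each left out 1 array, nor with normexp, without normalization, without a filter on dim probes, with the authors' values or with the replicate block. *Tmem173*, the adaptor STING, had a difference of 0.55 (q = 0.0876), which is below the fold threshold, and *Irf7*, the factor that amplifies interferon-α genes, had 0.43 (q = 0.304). *Tlr3*, a receptor of double-stranded RNA named after its values were seen, read 3.98 to 4.33 on Co arrays and 6.17, 7.03, 3.24 and 4.37 on Pg1 to Pg4 (difference 1.04, q = 0.448). It was well above background on 4 Co and 3 Pg arrays, so its difference includes a value that is no measured level. The list had 10 genes higher and 5 lower of 15 tested, with a median of 0.12.

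Of 33 other antiviral genes tested, 28 had a higher and 5 a lower Pg mean, with a median of 0.14 and no DEG. The differences were 0.66 for *Slfn8* (q = 0.317 by limma), 0.57 for *Mx2*, a dynamin-like antiviral GTPase (q = 0.165), and 0.53 for *Phf11b* (q = 0.357). The groups of *Mx2* did not overlap, though the highest Co and the lowest Pg array were both at 6.08. *Trim30a*, named after its values were seen, had the only q under 0.1 in this list (0.48, q = 0.0683 by limma; 1.82% of all probes tested had such a q with a higher Pg mean), with 7.10 to 7.52 on Co arrays and 7.65 to 7.87 on Pg arrays. Its Pg2 value of 7.65 was the lowest of the Pg arrays, unlike the 9 effectors that were highest there. *Ifit3b*, a near copy of *Ifit3*, had a difference of -0.02 (q = 0.966).

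The other synthetase genes of the OAS and RNase L list had 4 higher and 2 lower of 6 tested, with a median of 0.03. *Oas1f*, a neighbour of *Oas1a* in sequence, read 5.84, 5.46, 5.76 and 6.00 on Co1 to Co4 and 6.44, 7.29, 5.94 and 6.40 on Pg1 to Pg4 (difference 0.75, q = 0.154 by limma). Only Pg3 overlapped with the Co arrays. The differences of *Oasl1* and *Oas1c* were 0.30 (q = 0.527) and -0.07 (q = 0.801).

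**Figure D4:**
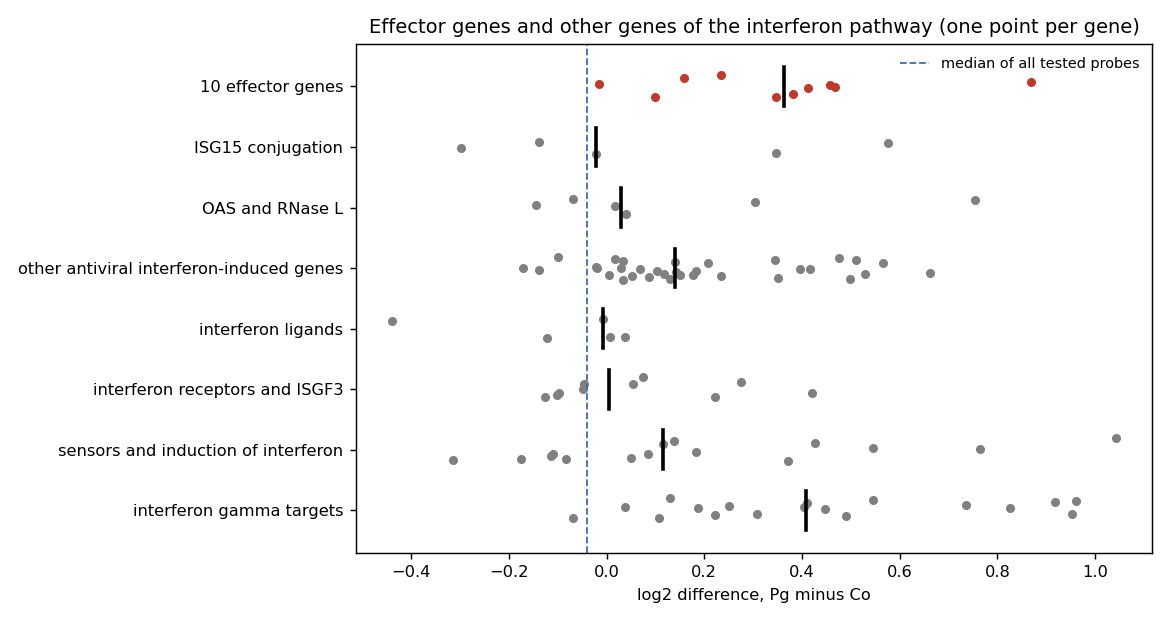
Difference between Pg and Co mice (log2 scale, Pg mean minus Co mean) of each tested gene in the 7 pathway lists and of the 10 interferon effectors, 1 point per gene, with the list's median. The effectors have a median of 0.36, the interferon-γ targets 0.41 and the receptor and ISGF3 genes 0.00.

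The targets of interferon-γ had the largest median of the 7 lists. Of 18 tested, 17 had a higher Pg mean, with a median of 0.41 and no DEG. Among those above background on all 8 arrays, the 3 largest differences were those of the class II antigen-presentation genes *H2-Ab1* (0.96, q = 0.431 by limma), *H2-Eb1* (0.95, q = 0.434) and *H2-Aa* (0.83, q = 0.488). *H2-Ab1* read 10.12 to 11.22 on Co arrays and 10.95, 13.07, 10.06 and 12.76 on Pg1 to Pg4. Pg2 and Pg4 were far above all Co arrays and Pg3 below them, the same 2 high arrays as in the macrophage sum. In this list 11 genes were highest on Pg2.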

How the data were processed

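Expression of 4 Co and 4 Pg arrays was read from the scanner output of Agilent Feature Extraction 11.0.1.1. As deposited, the processed Cy3 intensity (200 ng RNA, 1 color) was background-subtracted per spot and not normalized between arrays. The authors also deposited normalized log2 values, which served as an alternative. Their fold changes, p-values, log odds and GO text were not used. Spots of a probe were averaged (56605 probes from 59305 spots, population outliers left out), quantile-normalized between arrays, set to no less than 1 and taken to log2. Probes well above background on 4 or more arrays (33820) entered the fit of limma 3.58.1 (R 4.3.3), two-sided, with Benjamini-Hochberg adjustment. The steps were tested on simulated data. DEGs had q under 0.1 and a fold change above 1.5. The brightest probe stood for a gene, and sums over lists used tested genes.

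The genes, lists and tests were chosen with earlier results of these data known. All probes of the 10 genes are named, with the DEGs and the 3 largest differences per list among genes above background on all arrays, the 5 genes most like the mean profile, and defining markers. One gene that this rule selects is not reported here. Alternatives changed the background correction, the normalization, the filter, the source of values, the block and the arrays used. The number of arrays limits the precision. Probe coordinates are mm9 as the scanner output gives them, and promoters are GRCm38.p6. Same-numbered arrays shared a slide column, and their deviations from the group means correlated at 0.06, -0.03, -0.07 and 0.18.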

Additional observations from a re-analysis of the deposited data

Results flagged for a closer look

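In 3 of 24 groups of 4 arrays, 1 array lay far from the other 3 by Dixon's criterion, where chance gives about 1 in 20. *Ifit1* was at 7.37 on Pg2, with the other Pg arrays at 6.72 to 6.78. *Usp18* was at 7.73 on Pg2, with the others at 7.11 to 7.13. *Rtp4* was at 10.14 on Co4, with the other Co arrays at 9.63 to 9.67. All values are log2 normalized intensities, and the cause was not tested.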

How the results depend on the processing

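The median difference of the 10 effectors stayed above 0 in all 16 alternatives, from 0.12 (without Pg2, where 7 genes were higher) to 0.48 (without Co4). A member probe became a DEG in 2, that of *Oas1a*, at 0.73 with normexp background correction and at 1.08 without Pg3, so the number of member DEGs was 0 to 1 with 1 array left out and 1 with normexp. Reversed differences were those of *Ifit2* without Pg2 (-0.011; range with 1 array left out -0.011 to 0.22), *Ifit3* without Pg2 (-0.031; -0.031 to 0.30), the dimmer *Rsad2* probe without Pg4 (-0.10; -0.10 to 0.29) and the brighter *Rsad2* probe without normalization (0.024), with the authors' values (0.0020) and without Co3, Co4, Pg1 or Pg3 (range with 1 array left out -0.20 to 0.14). The background count was less stable. Over all probes there were 546 DEGs (106 higher, 440 lower), 94 with normexp (66 and 28), 283 with 75th percentile scaling (137 and 146), 27 without normalization (20 and 7), 318 with probes above background on all 8 arrays (107 and 211), 106 with the authors' values (60 and 46), and 3 (without Co3) to 697 (without Pg3) with 1 array left out. The pathway lists had 1 DEG, and 0 with normexp, without normalization, without a filter and with the authors' values, and 0 to 4 (4 without Pg3) with 1 array left out. With the replicate number as a block there were 0 DEGs among all probes, among the pathway lists and among the member probes. The numbers pair no mice by their labels. The cause of these shifts was not tested. A slide or scan block was not run, because all arrays shared both. A probe not above background, such as the dim *Oas2* probe and that of *Ifnb1*, gives no level here.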
